A study of Mus musculus with 47 samples.

Results

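The response of gonadal fat to a diet with 44% fat, against a diet with 10% fat, was compared between females of 2 inbred mouse strains, NZO/HlLtJ and CAST/EiJ. The comparison was the interaction of diet and strain, that is, the 44% minus 10% effect in NZO/HlLtJ minus the same effect in CAST/EiJ. It used the 16 female libraries of these strains among the 47 of the series, chosen by their labels, with 4 in each of 4 groups. The groups were NZO/HlLtJ on 10% fat, NZO/HlLtJ on 44% fat, CAST/EiJ on 10% fat and CAST/EiJ on 44% fat. All were wild-type by their labels, both diets contained fiber, and the 44% diet is described in the series as also high in sugar. Diets began at 6 weeks of age and the gonadal fat pad was taken at 15 weeks. The series also holds C57BL/6J, the common laboratory reference strain, and males of all 3 strains, and its title asks how genotype and diet together set susceptibility in mouse models of type 2 diabetes. NZO/HlLtJ mice become obese and prone to diabetes through many loci, CAST/EiJ descends from wild-caught mice, and each stands for 1 inbred genome.

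White fat stores energy as triglyceride, which adipocytes make from circulating fatty acids or, by de novo lipogenesis, from sugars, and release by lipolysis. Insulin drives glucose uptake and lipogenesis and restrains lipolysis, and adipocytes also secrete hormones such as adiponectin and leptin. In obese fat, macrophages gather around enlarged or dying adipocytes, take up lipid and can divide in place. Visceral pads such as the gonadal one are covered by mesothelium and hold progenitor cells from which new adipocytes form.

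The 16 libraries held 34.9 to 56.4 M counts (median 41.5 M), and 18769 of 22376 genes were tested. The labelled tissue was supported by its markers in every library: all 20 adipocyte identity genes were tested, and their sum was between 30200 and 57600 CPM (counts scaled to a common library size by TMM). Genes of neighbouring tissues were low in sum, at 23.6 to 37.5 CPM for ovary, oviduct and uterus, 23.1 to 55.8 for mammary epithelium, 5.21 to 78.9 for skeletal muscle and 1.33 to 10.8 for lymph node. These sums rest on the tested members alone, in the same order 12 of 18, 6 of 12, 11 of 11 and 4 of 7 listed genes. Mitochondrially encoded genes took 4.07% to 4.81% of the counts in NZO/HlLtJ and 6.97% to 8.55% in CAST/EiJ. The gene Fasn alone took 3.73% to 4.65% of the counts in CAST/EiJ on 10% fat and 0.926% to 1.98% on 44% fat. In NZO/HlLtJ it took 0.403% to 1.31% on 10% fat (median 1.18%) and 0.402% to 0.686% on 44% fat (median 0.572%). These NZO/HlLtJ groups overlapped through replicate 3 on 10% fat, at 0.403%. Whether the libraries of a group are from different mice is not stated, so the p values measure a spread between libraries, which may be technical. That spread was estimated within the 12 groups of strain, sex and diet of all 47 libraries, not from these 16 alone. Every adjusted p below comes from the edgeR quasi-likelihood test with Benjamini-Hochberg adjustment over all tested genes unless another tool is named, a gene is called at an adjusted p below 0.05, and errors of log2 values are standard errors (SE).

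The response to diet differed between the strains for 2601 genes (13.9% of those tested). The difference was positive, meaning a more positive change in NZO/HlLtJ, for 1352 genes (7.2%) and negative for 1249 (6.65%), and it was 2-fold or more for 1068. In NZO/HlLtJ 3960 genes changed with diet (21.1%), 1942 upward (10.3%) and 2018 downward (10.8%). In CAST/EiJ 1232 changed (6.56%), 398 upward (2.12%) and 834 downward (4.44%). For comparison, 1368 genes (7.29%) changed in C57BL/6J females, 727 upward (3.87%) and 641 downward (3.42%). With library totals in place of TMM the median diet effect over all genes moved to 0.14 (log2) in CAST/EiJ, against 0.003 with TMM. The share of calls that were upward then moved from 32.3% to 75.9% in CAST/EiJ and from 49.0% to 66.7% in NZO/HlLtJ. The share of interaction calls that were positive moved from 52.0% to 39.6%, and to 41.7% with upper quartile scaling.

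Genes with different responses fell mostly to one strain. Of the 2601, 1660 (63.8%) were called for diet in NZO/HlLtJ alone, 443 (17.0%) in CAST/EiJ alone, 130 in both with opposite signs, 3 in both with the same sign (Sorcs2, Foxred2 and Sccpdh) and 365 in neither. A call in one strain and not in the other is a description, and the interaction test is what shows the difference. The point estimates of the strains had opposite signs for 2178 of the 2601 genes (83.7%), and for 1334 of the 1660 (80.4%). Choosing genes by the difference favours opposite signs. Across all 18769 genes the diet effects of the strains, which share no library, had a Pearson correlation of -0.01, given as a description since genes are not independent. The strains differed more on 44% fat than on 10% fat for 1823 of the 2601 genes (70.1%), against 57.3% of all tested genes. The strain difference itself was called for 10371 genes (55.3%) on 10% fat and 11346 (60.5%) on 44% fat.

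**Figure D1:**
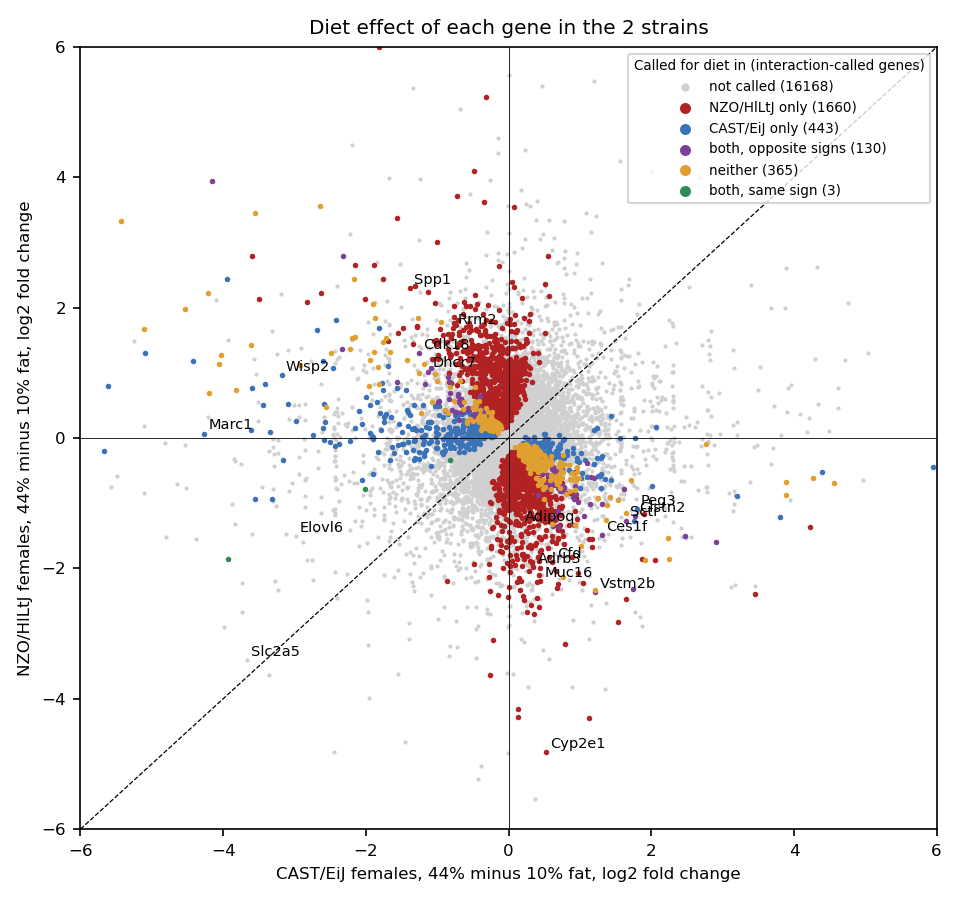
Log2 fold change from 10% to 44% fat of each tested gene in CAST/EiJ females (x axis) and NZO/HlLtJ females (y axis), coloured by the strains in which interaction-called genes were called for diet; 6 genes lie outside the axes and the dashed line marks equal effects. The 1660 genes called for diet in NZO/HlLtJ alone spread along the vertical axis, the 443 called in CAST/EiJ alone along the horizontal axis, and Slc2a5 lies near the dashed line.

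Adipocyte genes fell in NZO/HlLtJ and held closer to their 10% fat level in CAST/EiJ. Of the 20 adipocyte identity genes, 14 fell with diet in NZO/HlLtJ and 1 in CAST/EiJ, none rose in either strain, and 9 had a negative interaction and 0 a positive one. The list's median interaction was -0.51 (log2), against -0.01 over all tested genes. Adipoq (ENSMUSG00000022878, chromosome 16, 23146536 to 23158028, GRCm38), which encodes the insulin-sensitizing hormone adiponectin, was at 2350, 2330, 2370 and 2230 CPM in NZO/HlLtJ on 10% fat and at 1070, 822, 801 and 963 on 44% fat. In CAST/EiJ it was at 2810, 2740, 2360 and 2530 CPM on 10% fat and at 2850, 2580, 3260 and 3030 on 44% fat. All 4 NZO/HlLtJ libraries on 44% fat lay below the other 12, and the CAST/EiJ groups overlapped. The fall in NZO/HlLtJ was 2.53-fold (log2 -1.34, SE 0.12, adjusted p = 4.36e-09), the CAST/EiJ effect was log2 0.17 (SE 0.12, adjusted p = 0.484), and the interaction was log2 -1.51 (SE 0.17, adjusted p = 4.37e-07).

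The largest negative interaction of the named genes was that of Cyp2e1 (ENSMUSG00000025479, chromosome 7, 140763739 to 140774975, GRCm38), a cytochrome P450 that oxidizes ethanol, acetone and fatty acids. It was at 395, 694, 988 and 621 CPM in NZO/HlLtJ on 10% fat and at 45.9, 16.5, 22.8 and 10.4 on 44% fat. The CAST/EiJ libraries were at 5140, 4010, 3380 and 3240 CPM on 10% fat and at 6510, 5450, 5710 and 4960 on 44% fat. The NZO/HlLtJ groups did not overlap, and the CAST/EiJ groups did. Cyp2e1 fell 28.2-fold in NZO/HlLtJ (log2 -4.82, SE 0.52), with a CAST/EiJ effect of log2 0.52 (SE 0.44) and an interaction of -5.34 (SE 0.67, adjusted p = 1.58e-06).

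Other adipocyte genes with a negative interaction were Cfd, Adrb3, Acvr1c, Plin4, Retn, Plin1, Lipe and Pnpla2. Cfd, the complement factor adipsin secreted by adipocytes, was at 1190 to 1480 CPM in NZO/HlLtJ on 10% fat and at 268 to 509 on 44% fat, and its interaction was log2 -2.52 (SE 0.47, adjusted p = 0.000351). Adrb3, the adipocyte adrenergic receptor that triggers lipolysis, was at 164 to 273 CPM and then at 31.2 to 69.1 in NZO/HlLtJ, and its interaction was log2 -2.33 (SE 0.38, adjusted p = 9e-05). In neither gene did the NZO/HlLtJ groups overlap. The CAST/EiJ groups of Cfd did not overlap either, at 3720 to 6480 CPM on 10% fat and 6990 to 9040 on 44% fat, although that effect did not pass (log2 0.62, adjusted p = 0.29). Pparg, the transcription factor that directs adipocyte differentiation, had an interaction of log2 0.15 (adjusted p = 0.769), and Lep, which encodes leptin, one of 0.98 (SE 0.68, adjusted p = 0.369). The call of Pnpla2, the first lipase of triglyceride breakdown, was lost in 6 of the 16 fits without 1 library, the highest adjusted p being 0.0872. In bulk tissue fewer cells of a type and less RNA per cell cannot be told apart.

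Genes of insulin signalling and adrenergic signalling moved in part. Of 18 insulin signalling genes 5 had a negative interaction, among them Irs2, Irs1, Grb10 and Insr, and 2 a positive one (Ptpn1 and Pdk1), with a median of -0.30. Among all tested genes 6.65% had a negative interaction and 7.2% a positive one. The call of Pdk1 was lost in 9 of the 16 fits without 1 library (highest adjusted p = 0.0986, without CAST/EiJ on 10% fat replicate 4). Irs1 (ENSMUSG00000055980, chromosome 1, 82233101 to 82291416, GRCm38), a docking protein of the insulin receptor, was at 72.9, 83.6, 70.0 and 71.2 CPM in NZO/HlLtJ on 10% fat and at 30.2, 44.1, 35.8 and 38.4 on 44% fat. CAST/EiJ values were 145, 116, 139 and 122 CPM on 10% fat and at 141, 178, 169 and 181 on 44% fat. It fell 2.00-fold in NZO/HlLtJ without overlap of the groups (SE of the log2 value 0.17, adjusted p = 6.59e-05), and the interaction was log2 -1.36 (SE 0.24, adjusted p = 0.000246). Irs2, a second docking protein, was called for diet in CAST/EiJ instead, where it rose by log2 1.01 (SE 0.27, adjusted p = 0.0141), and its interaction was -1.63 (SE 0.38, adjusted p = 0.00296). Of 17 genes of lipolysis and adrenergic signalling 5 had a negative interaction (Adcy5, Pde3b, Prkar2b, Npr1 and Mgll) and 1, the lysosomal lipase gene Lipa, a positive one.

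**Figure D2:**
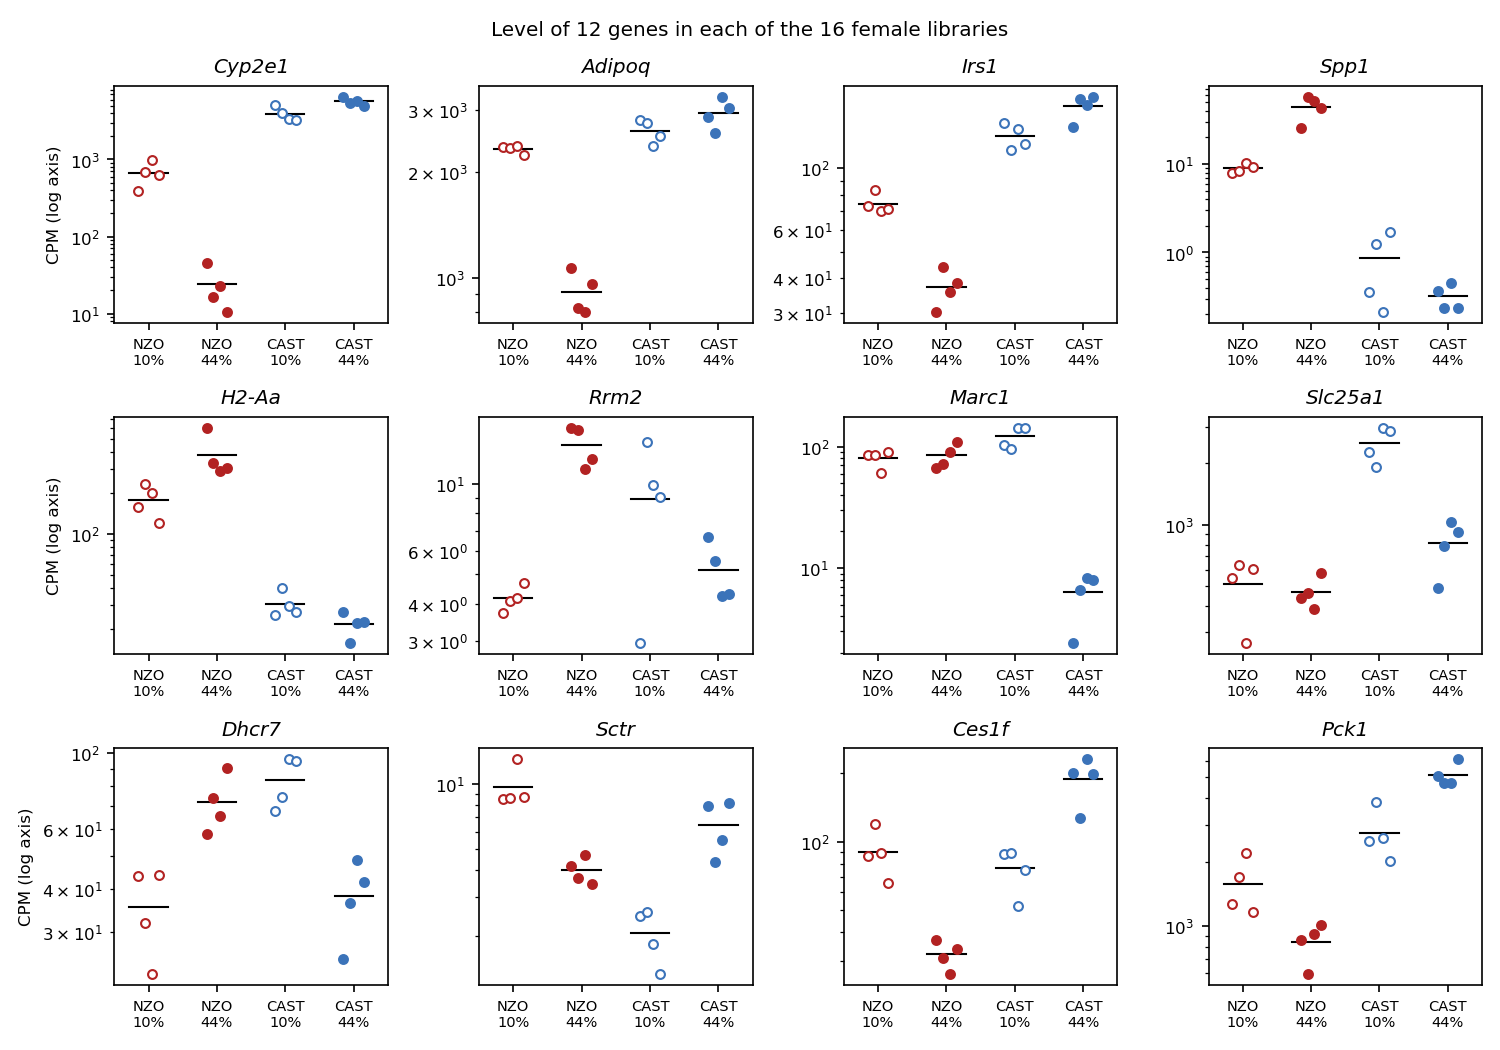
CPM on a log axis of 12 genes in each of the 16 female libraries (circles; open, 10% fat; filled, 44% fat), with a bar at each group's mean, n = 4. Adipoq, Irs1 and Cyp2e1 are low in the NZO/HlLtJ libraries on 44% fat, Marc1 and Slc25a1 are low in CAST/EiJ on 44% fat relative to 10% fat, and Sctr, Ces1f and Pck1 move in opposite directions in the strains.

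Transcripts for branched-chain amino acid catabolism, through which adipocytes burn leucine, isoleucine and valine, fell in NZO/HlLtJ. Of the pathway's 18 genes 16 fell in NZO/HlLtJ and 0 rose, while in CAST/EiJ 1 rose and 0 fell. The interaction was negative for 14 and positive for 0, with a median of -0.65. The summed level in NZO/HlLtJ ran from 2250 to 2400 CPM on 10% fat and from 1390 to 1590 on 44% fat, and in CAST/EiJ from 3340 to 4060 and from 3490 to 4160. Ivd (ENSMUSG00000027332, chromosome 2, 118861954 to 118882909, GRCm38), the dehydrogenase of the leucine branch, was at 139, 154, 142 and 133 CPM in NZO/HlLtJ on 10% fat and at 82.9, 68.1, 67.0 and 80.6 on 44% fat. In CAST/EiJ it was at 230, 178, 204 and 206 CPM on 10% fat and at 200, 204, 231 and 239 on 44% fat. Only the NZO/HlLtJ groups were apart, and the interaction was log2 -1.02 (SE 0.18, adjusted p = 0.000232). Bcat2, the first transaminase of the pathway, had an interaction of log2 -1.03 (SE 0.30, adjusted p = 0.0187). Nuclear genes of oxidative phosphorylation shifted less. Of 28, 11 fell in NZO/HlLtJ and 0 in CAST/EiJ, with medians of -0.30 and -0.14, and 0 passed for the interaction.

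The start of Ivd is shown because the pathway moved as a group. The stretch is chr2:118861744-118862023, plus strand, from RefSeq on GRCm38.p6, from 250 bases before to 30 after the annotated start, and capitals mark CCAAT on either strand (ATTGG on the one printed).
Ivd: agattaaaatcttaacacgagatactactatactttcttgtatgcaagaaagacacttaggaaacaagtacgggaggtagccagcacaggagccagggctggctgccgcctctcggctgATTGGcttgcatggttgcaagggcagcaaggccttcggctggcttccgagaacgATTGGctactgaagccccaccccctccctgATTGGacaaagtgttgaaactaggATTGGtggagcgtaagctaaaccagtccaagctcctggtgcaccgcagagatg
The first letters of the matches were at -131, -77, -47 and -23, counted from the start base as 0. Of the 14 called pathway genes 12 had a start in the RefSeq table, and 7 of these (58.3%) held CCAAT, against 37.2% of the starts of 12486 tested genes. No CCAAT was in this window of Bcat2.

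Lipogenic genes fell in both strains, in CAST/EiJ in larger number. Of 20 genes of de novo lipogenesis 13 fell in CAST/EiJ and 4 in NZO/HlLtJ, a description of calls in each strain. The interaction was positive for 2, Slc25a1 and Elovl5, a share near the 7.2% of all tested genes. The median diet effect was -1.05 in CAST/EiJ and -0.47 in NZO/HlLtJ. Slc25a1 (ENSMUSG00000003528, chromosome 16, 17925211 to 17928219, GRCm38), which exports citrate from mitochondria for lipid synthesis, was at 2280, 1920, 2980 and 2870 CPM in CAST/EiJ on 10% fat and at 492, 790, 1030 and 926 on 44% fat. In NZO/HlLtJ it was at 550, 635, 263 and 610 CPM on 10% fat and at 440, 462, 386 and 582 on 44% fat. The CAST/EiJ groups were apart and the NZO/HlLtJ groups overlapped, with an interaction of log2 1.5 (SE 0.37, adjusted p = 0.00485). Elovl6, a fatty acid elongase, fell 7.89-fold in CAST/EiJ and 2.83-fold in NZO/HlLtJ, but the difference did not pass (log2 1.48, SE 0.69, adjusted p = 0.156). For Fasn, the fatty acid synthase, it was log2 0.57 (SE 0.51, adjusted p = 0.505).

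Other genes fell in both strains. Of the 306 genes called for diet in both strains, 145 fell in both, 31 rose in both and 130 moved in opposite directions. Slc2a5 (chromosome 4, 150119283 to 150144169, GRCm38), through which cells take up fructose, was at 7.68, 9.99, 1.19 and 7.61 CPM in NZO/HlLtJ on 10% fat and at 0.480, 1.22, 0.458 and 0.366 on 44% fat. The CAST/EiJ libraries were at 30.0, 47, 54.3 and 57.7 CPM on 10% fat and at 0.923, 3.35, 6.82 and 3.74 on 44% fat. The NZO/HlLtJ groups overlapped through replicate 3 on 10% fat, and the CAST/EiJ groups were far apart. The falls were log2 -3.41 (SE 0.77) and -3.67 (SE 0.70), and their difference was 0.26 (SE 1.02, adjusted p = 0.915), an error too wide to show that the strains respond alike. Slc2a4, the insulin-responsive glucose transporter GLUT4, fell by log2 1.02 in NZO/HlLtJ and by log2 0.96 in CAST/EiJ (both SE 0.20), with a difference of -0.06 (SE 0.28, adjusted p = 0.936). Acaca, which makes malonyl-CoA for fatty acid synthesis, fell by log2 1.29 in each strain (SE 0.34).

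Cholesterol synthesis genes fell in CAST/EiJ and not in NZO/HlLtJ. Of 23 genes 9 fell and 0 rose in CAST/EiJ, 0 fell and 2 rose in NZO/HlLtJ, and 9 had a positive interaction and 0 a negative one, with a median of 0.97. Dhcr7 (ENSMUSG00000058454, chromosome 7, 143823145 to 143848410, GRCm38), a last enzyme of the pathway, was at 43.6, 31.9, 22.6 and 44.0 CPM in NZO/HlLtJ on 10% fat and at 58.2, 73.9, 65.6 and 90.6 on 44% fat. CAST/EiJ values were 67.7, 74.6, 96.2 and 94.9 CPM on 10% fat and at 25.1, 36.5, 48.8 and 42.1 on 44% fat. The groups were apart in both strains and in opposite order, and the interaction was log2 2.15 (SE 0.46, adjusted p = 0.00165). The 9 positive calls fell to 3 without NZO/HlLtJ on 10% fat replicate 3, and to 4 without CAST/EiJ on 10% fat replicate 4 or CAST/EiJ on 44% fat replicate 1.

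The most positive interactions of the named genes were those of Marc1 and Wisp2, both of which fell in CAST/EiJ. Marc1 (chromosome 1, 184786767 to 184811313, GRCm38), a molybdenum enzyme of the outer mitochondrial membrane, was at 103, 95.8, 143 and 143 CPM in CAST/EiJ on 10% fat and at 2.40, 6.63, 8.23 and 7.98 on 44% fat. In NZO/HlLtJ it was at 85.8, 85.6, 60.6 and 90.8 CPM on 10% fat and at 66.3, 72.1, 89.7 and 110 on 44% fat. The CAST/EiJ groups were far apart and the NZO/HlLtJ groups overlapped. The CAST/EiJ fall was 19.2-fold (log2 -4.27, SE 0.46, adjusted p = 9.62e-08), and the interaction was log2 4.33 (SE 0.59, adjusted p = 5.15e-06). Wisp2, a secreted protein of the Wnt pathway made by adipose precursors, fell by log2 3.18 (SE 0.57) in CAST/EiJ, from 10.1 to 33.7 CPM to 0.825 to 3.23, with an interaction of 4.14 (SE 0.77, adjusted p = 0.000325). Tekt1, a tektin of cilia and flagella, and Ttc25, a protein that docks dynein arms in cilia, fell in CAST/EiJ with log2 effects of -3.09 for Tekt1 and -3.55 for Ttc25, and their interactions were 3.61 and 2.62.

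Macrophage genes rose in NZO/HlLtJ and no macrophage gene was called for diet in CAST/EiJ. Of 18 macrophage genes 14 rose and 1, Cd163, fell in NZO/HlLtJ, against 0 and 0 in CAST/EiJ, and 6 had a positive interaction and 1 a negative one, with a median of 0.59. The call of Cd163, a scavenger receptor of resident macrophages, was lost in 5 of the 16 fits without 1 library (-0.76, adjusted p = 0.1 without NZO/HlLtJ on 10% fat replicate 3). Of 15 genes of lipid-associated macrophages 9 rose in NZO/HlLtJ, 1 fell in CAST/EiJ, and 7 had a positive interaction (median 1.30). This list includes Lpl, Cd36 and Plin2, which adipocytes also express. Its member Trem2 did not pass the interaction test (log2 1.09, SE 0.53, adjusted p = 0.167). The call of Gpnmb was lost in 9 of the 16 fits without 1 library (highest adjusted p = 0.0801). Adgre1 (ENSMUSG00000004730, chromosome 17, 57358686 to 57483529, GRCm38), the macrophage surface marker F4/80, was at 75.2, 96.2, 117 and 76.7 CPM in NZO/HlLtJ on 10% fat and at 175, 255, 214 and 198 on 44% fat. In CAST/EiJ it was at 14.7, 21.7, 14.9 and 11.1 CPM on 10% fat and at 17.2, 15.9, 17.2 and 12.6 on 44% fat. All 8 CAST/EiJ libraries lay below all NZO/HlLtJ ones, and the interaction was log2 1.19 (SE 0.29, adjusted p = 0.00509).

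Spp1 (ENSMUSG00000029304, chromosome 5, 104435118 to 104441050, GRCm38), which encodes osteopontin, a secreted protein of lipid-laden macrophages, was at 8.01, 8.31, 10.4 and 9.31 CPM in NZO/HlLtJ on 10% fat and at 25.7, 57.7, 51.8 and 42.8 on 44% fat. The CAST/EiJ libraries were at 0.358, 1.24, 0.211 and 1.69 CPM on 10% fat and at 0.364, 0.236, 0.449 and 0.234 on 44% fat, and these groups overlapped. Its interaction was log2 3.68 (SE 1.06, adjusted p = 0.0157), and the call was lost without CAST/EiJ on 10% fat replicate 4 (log2 3.17, adjusted p = 0.0697). Itgax, the integrin CD11c of macrophages and dendritic cells, rose by log2 1.20 in NZO/HlLtJ and had an interaction of 1.77 (SE 0.52, adjusted p = 0.0177), or 1.53 (adjusted p = 0.0508) with the sample number range of the labels as a term. Ccl2, the chemokine that draws monocytes, rose 5.41-fold in NZO/HlLtJ (log2 2.44, SE 0.41), but its interaction did not pass (1.30, SE 0.64, adjusted p = 0.183). Of 22 inflammatory mediators 10 rose and 1 fell in NZO/HlLtJ, and 0 were called in CAST/EiJ. The interaction was positive for 3 and negative for 1, against 7.2% and 6.65% of all tested genes. Of the positive calls, that of Ccl9 was lost in 8 of the 16 fits without 1 library (highest adjusted p = 0.127) and that of Il1rn in 6 (highest adjusted p = 0.0759).

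Antigen presentation genes moved with them. All 7 class II genes rose in NZO/HlLtJ, 0 were called in CAST/EiJ and 6 had a positive interaction, with a median of 1.52. H2-Aa, a chain of the class II molecule, was at 159, 231, 201 and 121 CPM in NZO/HlLtJ on 10% fat and at 602, 333, 289 and 306 on 44% fat, with the highest value in replicate 1. CAST/EiJ values were 25.4 to 40.0 CPM on 10% fat and at 15.8 to 26.7 on 44% fat, and the interaction was log2 1.58 (SE 0.35, adjusted p = 0.0022). The same replicate 1 was the highest of its group for summed T and NK cell genes, at 137 CPM against a group median of 62.6. Without it and CAST/EiJ on 44% fat replicate 4, the CAST/EiJ library highest in skeletal muscle genes, 4 of the 7 class II genes and 5 of the 18 macrophage genes had a positive call. Of 18 T and NK cell genes 2 had a positive interaction, Trac and Il7r, a share near the 7.2% of all tested genes. The value of Trac fell to 0.93 (adjusted p = 0.292) without NZO/HlLtJ on 44% fat replicate 1. The call of Il7r was lost without CAST/EiJ on 10% fat replicate 3 (1.47, adjusted p = 0.0638). None of the genes of B and plasma cells (14), neutrophils and mast cells (13) or dendritic cells (9) passed the interaction test.

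Lysosomal genes rose in NZO/HlLtJ, with 14 of 22 called and 0 fallen, while 3 fell in CAST/EiJ and 0 rose. The interaction was positive for 14 and negative for 0, with a median of 0.48. Their sum in NZO/HlLtJ was 9090 to 9740 CPM on 10% fat and 12100 to 12600 on 44% fat, and in CAST/EiJ 10200 to 11100 and then 7050 to 8400. Neither pair of groups overlapped, and they lay in opposite order, but the list's median effect in CAST/EiJ was -0.05 and its 3 called members there included Ctsd and Ctsb, with log2 effects of -1.09 and -0.36. Ctss, a cathepsin of antigen-presenting cells, rose by log2 1.32 in NZO/HlLtJ (SE 0.24) and had an interaction of 1.64 (SE 0.34, adjusted p = 0.00119). Ctsd (ENSMUSG00000007891, chromosome 7, 142371148 to 142388038, GRCm38), a widely expressed lysosomal protease, was at 3170, 3330, 3590 and 4060 CPM in CAST/EiJ on 10% fat and at 1200, 1810, 1720 and 1900 on 44% fat. In NZO/HlLtJ it was at 1840, 2050, 1650 and 2160 CPM on 10% fat and at 2150, 2270, 2220 and 2440 on 44% fat. Only the CAST/EiJ groups were apart, and the interaction was log2 1.33 (SE 0.25, adjusted p = 0.000325).

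Genes of cell division rose in NZO/HlLtJ. All 20 cell cycle genes rose there, 0 were called in CAST/EiJ, and 16 had a positive interaction and 0 a negative one, with a median of 1.77. Rrm2 (ENSMUSG00000020649, chromosome 12, 24708241 to 24714146, GRCm38), a subunit of the enzyme that makes deoxynucleotides, was at 3.73, 4.09, 4.17 and 4.69 CPM in NZO/HlLtJ on 10% fat and at 15.4, 15.1, 11.2 and 12.1 on 44% fat. In CAST/EiJ it was at 2.95, 13.8, 9.90 and 9.08 CPM on 10% fat and at 6.68, 5.56, 4.23 and 4.30 on 44% fat. The NZO/HlLtJ groups were apart, and the CAST/EiJ groups overlapped through the low replicate 1 on 10% fat. The interaction was log2 2.46 (SE 0.55, adjusted p = 0.00237). Ccnb2, a mitotic cyclin, had one of 2.40 (SE 0.63, adjusted p = 0.00837), and E2f8, Clspn and Cdc6, which act in DNA replication and its control, had 2.99, 2.64 and 2.51. These values do not show which cells divide.

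The starts of Rrm2 and Ccnb2 are shown because most called cell cycle genes held CCAAT there. They are chr12:24708004-24708283, plus strand, and chr9:70421525-70421804, minus strand, from RefSeq on GRCm38.p6, printed as for Ivd. Capitals mark CCAAT and, in Ccnb2, TTTGAA, the cell cycle homology region, searched on both strands, and no match overlapped another.
Rrm2: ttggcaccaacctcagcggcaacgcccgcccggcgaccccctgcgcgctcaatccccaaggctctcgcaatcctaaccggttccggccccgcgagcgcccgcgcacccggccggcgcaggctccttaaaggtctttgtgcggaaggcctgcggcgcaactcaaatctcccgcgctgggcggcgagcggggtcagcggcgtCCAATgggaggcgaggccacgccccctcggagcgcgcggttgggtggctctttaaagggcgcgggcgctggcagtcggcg
Ccnb2: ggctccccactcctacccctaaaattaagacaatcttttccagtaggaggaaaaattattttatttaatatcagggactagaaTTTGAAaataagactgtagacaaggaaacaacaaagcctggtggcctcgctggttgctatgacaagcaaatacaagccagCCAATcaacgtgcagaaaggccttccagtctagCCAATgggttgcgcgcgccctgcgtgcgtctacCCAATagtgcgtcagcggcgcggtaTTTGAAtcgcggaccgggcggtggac
The first letters of CCAAT were at -50 in Rrm2 and at -87, -54 and -21 in Ccnb2, and those of TTTGAA at -167 and 4 in Ccnb2. Of the 16 called cell cycle genes 14 had a start in the table. CCAAT was in 12 of these (85.7%), against 37.2% of 12486 starts, and TTTGAA in 6 (42.9%), against 11.8%. Of the 4 motifs searched, the other two, the E2F half-site GCGGGAA (7.34% of all starts) and the E-box CACGTG (9.15%), were in 0 of the 14, which says only that these letters are not in these windows. The 4 motifs were also searched in the starts of 10 called lysosomal genes, where CCAAT was in 3 (30%) and each of the others in 2 (20%). In the 12 starts of called branched-chain genes TTTGAA was in 0, and the E-box and the E2F half-site in 1 each (8.33%). All of these are matches of letters and not shown to be bound.

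**Figure D3:**
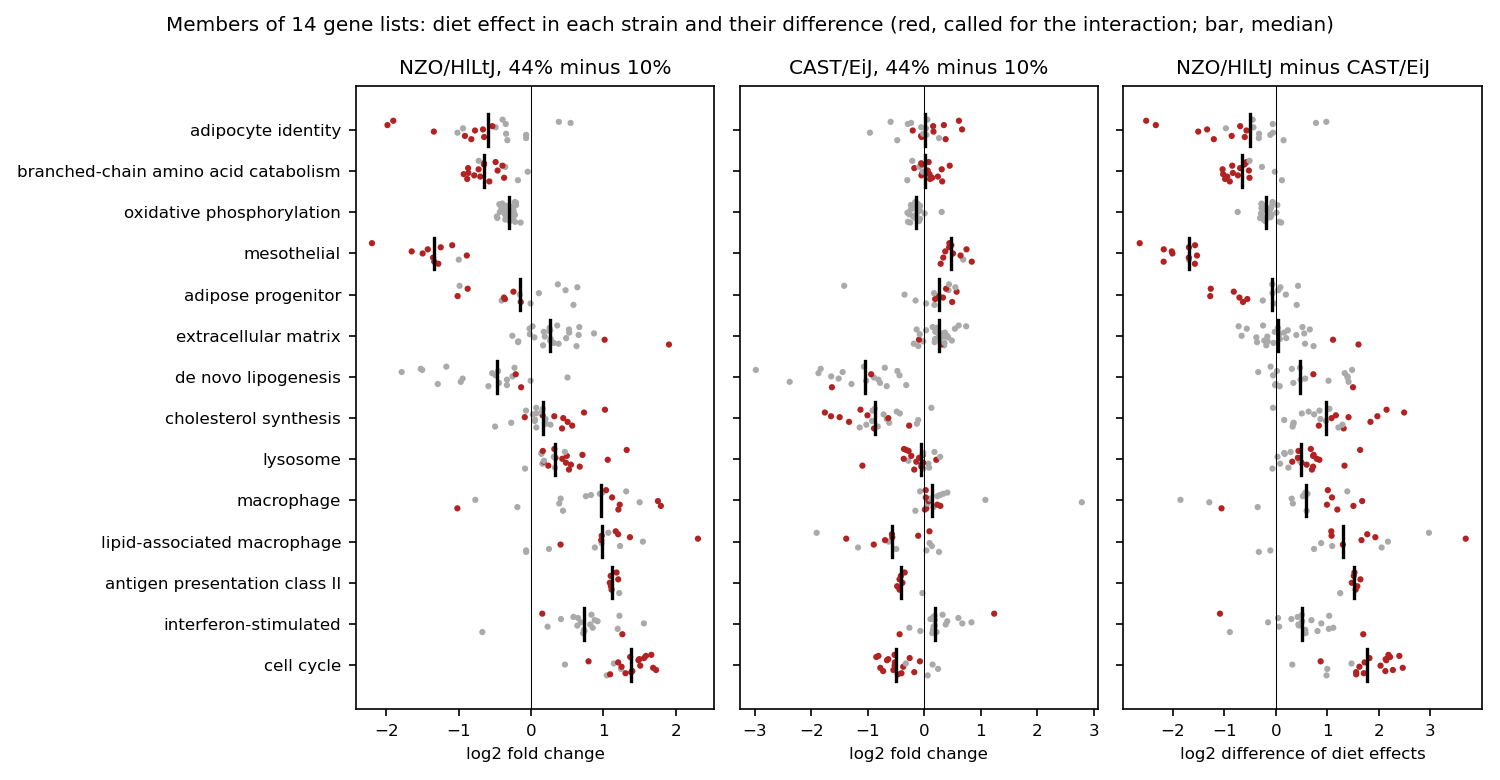
Log2 diet effect in NZO/HlLtJ (left), in CAST/EiJ (middle) and their difference (right) for the members of 14 gene lists, one point for each gene, red where the interaction was called, with a bar at the list's median. Cell cycle, class II and macrophage genes lie to the right and mesothelial and branched-chain amino acid genes to the left in NZO/HlLtJ.

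Mesothelial genes fell in NZO/HlLtJ, with 10 of 11 called, and 0 were called in CAST/EiJ. The interaction was negative for 10 of 11, with a median of -1.69. Their sum was 179 to 233 CPM in NZO/HlLtJ on 10% fat and 30.0 to 103 on 44% fat, against 267 to 518 and 442 to 691 in CAST/EiJ. Muc16, a surface mucin of mesothelium, was at 20.2, 23.9, 30.4 and 20.4 CPM in NZO/HlLtJ on 10% fat and at 4.73, 2.60, 5.74 and 7.51 on 44% fat, and its interaction was log2 -2.64 (SE 0.44, adjusted p = 0.000112). Krt19, an epithelial keratin, had one of -2.18 (SE 0.42, adjusted p = 0.000483). How much of the pad's surface each library held was not tested.

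Of 15 adipose progenitor genes 6 had a negative interaction (Gsn, Dpp4, Mfap5, Cd55, Cd34 and Clec3b) and 0 a positive one, with a median of -0.07. With diet alone members moved both ways, 3 rising and 3 falling in NZO/HlLtJ and 2 rising and 1 falling in CAST/EiJ. Dpp4, a marker of early progenitors, was at 32.3, 34.9, 45.9 and 35.5 CPM in NZO/HlLtJ on 10% fat and at 20.2, 17.4, 20.3 and 23.2 on 44% fat. The CAST/EiJ libraries were at 21.8 to 31.5 CPM on 10% fat and at 26.9 to 50.3 on 44% fat, and its interaction was log2 -1.26 (SE 0.24, adjusted p = 0.000448). Pdgfra, a general progenitor marker, had one of -0.07. The 6 calls became 3 without CAST/EiJ on 44% fat replicate 1. Of 27 matrix genes 7 rose in NZO/HlLtJ and 1 in CAST/EiJ, with similar median effects of log2 0.27 and 0.26. The interaction was positive for 2, Lox and Timp1, a share near the 7.2% of all tested genes, with a median of 0.04. The call of Timp1 was lost in 10 of the 16 fits without 1 library (highest adjusted p = 0.0875). Of 14 endothelial genes 0 passed the interaction test.

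Among the 130 genes that changed in both strains with opposite signs, 45 rose in NZO/HlLtJ and fell in CAST/EiJ, and 85 did the reverse. Sctr (ENSMUSG00000026387, chromosome 1, 120006894 to 120063536, GRCm38), the secretin receptor, which promotes lipolysis in adipocytes, was at 8.53, 8.54, 13.0 and 8.66 CPM in NZO/HlLtJ on 10% fat and at 4.20, 3.70, 4.71 and 3.47 on 44% fat. CAST/EiJ values were 2.47, 2.56, 1.84 and 1.33 CPM on 10% fat and at 7.89, 4.34, 5.49 and 8.13 on 44% fat. Neither pair of groups overlapped, and the interaction was log2 -2.91 (SE 0.46, adjusted p = 5.39e-05). Ces1f, a carboxylesterase, was at 65.6 to 119 CPM and then at 26.2 to 37.0 in NZO/HlLtJ, and at 52.3 to 89.5 and then at 127 to 231 in CAST/EiJ. Its interaction was log2 -2.80 (SE 0.47, adjusted p = 0.000106).

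Pck1, which makes the glycerol backbone of triglyceride in fat, fell by log2 0.91 in NZO/HlLtJ and rose by 0.91 in CAST/EiJ (both SE 0.28), and its interaction was -1.81 (SE 0.40, adjusted p = 0.00195). Clstn2, a calsyntenin known from synapses, had log2 -1.19 in NZO/HlLtJ and 1.77 in CAST/EiJ, and an interaction of -2.96 (SE 0.37, adjusted p = 1.71e-06). Cdk18, a cyclin-dependent kinase, moved the other way, with 1.31 and -1.26 and an interaction of 2.56 (SE 0.45, adjusted p = 0.00018). Plin2, which coats lipid droplets, was at 435 to 606 CPM and then at 991 to 1240 in NZO/HlLtJ, and at 888 to 1120 and then at 474 to 779 in CAST/EiJ. The groups were apart in both strains, but the effect of Plin2 was called in NZO/HlLtJ alone (log2 0.97, adjusted p = 0.00207, against -0.69, adjusted p = 0.0595, in CAST/EiJ), so it is not among the 130 genes. The interaction of Plin2 was log2 1.66 (SE 0.32, adjusted p = 0.000591).

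Of 8 genes linked to adipose expansion, some of them imprinted, 0 rose and 2 fell in NZO/HlLtJ while 2 rose and 0 fell in CAST/EiJ. Of these 8, 3 had a negative interaction (Peg3, Nnat and Bmp3) and 0 a positive one. Peg3 (ENSMUSG00000002265, chromosome 7, 6703892 to 6730431, GRCm38), an imprinted zinc-finger gene, was at 162, 119, 236 and 120 CPM in NZO/HlLtJ on 10% fat and at 66.1, 56.4, 79.5 and 96.3 on 44% fat. In CAST/EiJ it was at 94.8, 140, 45.7 and 46.6 CPM on 10% fat and at 406, 240, 285 and 205 on 44% fat. The groups were apart in both strains, but diet was called in CAST/EiJ alone (log2 1.80, SE 0.49), and the interaction was -2.89 (SE 0.68, adjusted p = 0.0035). Mest, an imprinted gene tied to adipocyte enlargement, rose in CAST/EiJ by log2 2.00 (SE 0.59) from 11.6 to 27.6 CPM to 54.2 to 122, and its interaction did not pass (-1.82, SE 0.81, adjusted p = 0.131).

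The same interaction was then set beside that of males, the most similar comparison, with 15 libraries. In males 53 genes were called (0.282%), 32 positive (0.17%) and 21 negative (0.112%), of which 21 were also called in females, all with the same sign. The female minus male difference was called for 237 genes (1.26%), 91 positive (0.485%) and 146 negative (0.778%). The positive share of these calls was 38.4%, against 25.8% with upper quartile scaling, 52.3% with DESeq2 and 62.4% with limma on the deposited log2 values. Of the 237, 212 were called in females, against 13.9% of all tested genes. The female interaction is itself a part of this difference, which largely fixes that overlap. Adipoq had an interaction of -1.51 in females and -0.17 in males, a difference of log2 -1.34 (SE 0.25, adjusted p = 0.0108). For Cyp2e1 it was -5.34 and -1.40, a difference of -3.94 (SE 0.92, adjusted p = 0.0238). Marc1 and Wisp2 had similar point estimates in males, 4.52 and 3.62. The male median of the cell cycle list was 0.15 against 1.77 in females, and 0 of its 20 genes were called for the difference between the sexes.

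**Figure D4:**
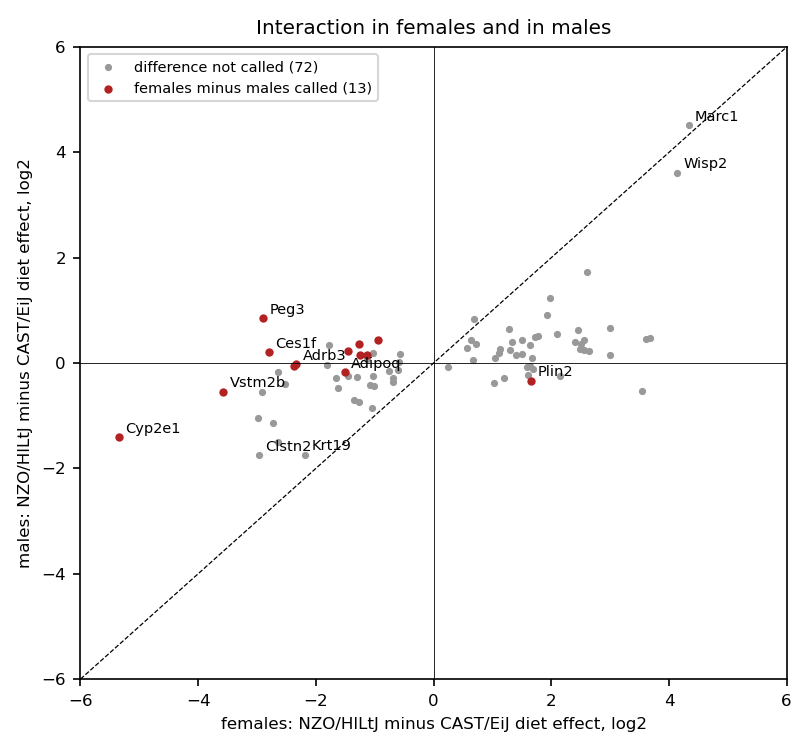
Interaction (log2 NZO/HlLtJ minus CAST/EiJ diet effect) of the 85 named called genes in females (x axis) and males (y axis), red for the 13 whose female minus male difference was called, with a dashed line of equal values. The genes were chosen on the female values, which favours points nearer 0 in males; Marc1 and Wisp2 lie near the line.

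The labels give sample numbers in 3 ranges, ORSAM77, ORSAM81 and ORSAM88, whose meaning they do not state. In NZO/HlLtJ females both diets had 2 libraries in ORSAM77, while the other 2 on 10% fat were in ORSAM81 and the other 2 on 44% fat in ORSAM88, so outside ORSAM77 the range and the diet cannot be told apart in this strain. With the range as a term in the fit 2301 genes were called, 2155 of them among the 2601. Within the 6 libraries of ORSAM77 174 genes were called, and within the other 10 libraries 864. ORSAM77 holds 1 CAST/EiJ library on each diet, so the spread in that fit came from the NZO/HlLtJ pairs alone and the lone libraries are assumed to vary like them. Both sets are parts of the 16 libraries on which the genes were called, so equal signs in them are largely fixed by that choice. Of the 85 named calls 57 did not pass within ORSAM77, 30 did not pass outside it and 8 did not with the range as a term. Cyp2e1 had -4.45 within ORSAM77 and -6.21 outside, Adipoq -1.31 and -1.60, Sctr -2.77 and -3.04, and Marc1 5.12 and 4.46. The median of the cell cycle list was 0.81 within ORSAM77 and 1.73 outside. Its CAST/EiJ library on 10% fat in ORSAM77 is replicate 1, the low one for Rrm2.

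**Figure D5:**
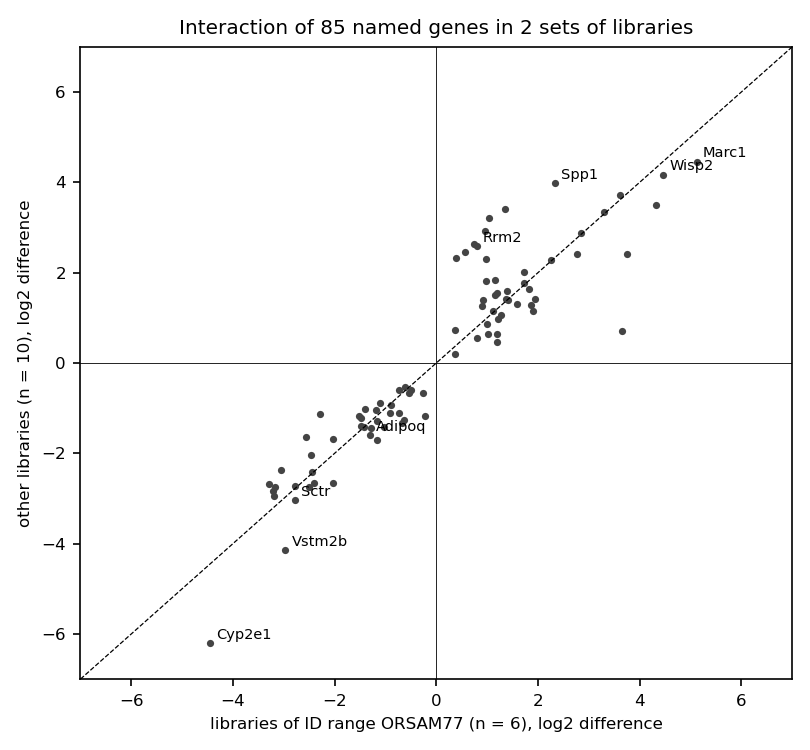
Interaction (log2) of the 85 named called genes in the 6 libraries of ORSAM77 (x axis) and in the other 10 libraries (y axis), with a dashed line of equal values. The genes were called on all 16 libraries together, which largely fixes the signs; Cyp2e1 lies at -4.45 and -6.21 and Rrm2 well above the line, at 0.80 and 2.60.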

How the data were processed

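Poly(A) RNA of gonadal fat pads was measured by paired 100 bp sequencing of KAPA mRNA libraries, per the labels' protocols. Expected counts, the authors' estimated counts for each gene, were deposited as 1 table, and the 21.5% of values that were not whole within 1e-06 were rounded. The deposited log2 values were variance-stabilized by the authors. The submitters' processing notes name GRCm38 and DESeq2. Not given in the sources used here are the aligner, the counting tool, the annotation release and whether reads of each strain were aligned to its own genome. Each count column was matched to its label by sample number, with 0 left over.

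Genes passing filterByExpr (minimum count 10) had TMM scaling. The model, run with edgeR 4.0.16 under R 4.3.3 (with limma 3.58.1), had 1 mean for each of the 12 groups of all 47 libraries, leaving 35 residual degrees of freedom; the biological coefficient of variation was 0.192. Each contrast had a quasi-likelihood F test. CPM values are TMM-scaled. No 2 libraries of a group agreed within counting noise (chi-square per degree of freedom 21.2 to 97.9). Xist (527 to 1260 CPM) and Y-linked genes (at most 0.181 CPM in sum) matched the female labels. Calling was tested on simulated data.

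Members, gene lists, alternatives and the naming rule were chosen with earlier results of these data known. The rule took protein-coding genes called for the interaction whose mean log2 CPM reached 1 and named the 12 most positive, the 12 most negative and the 4 largest called in both strains with opposite signs. It added as many as 3 called genes from every list, no more than 2 in one direction, and a panel of fat genes, 107 genes in all. List members that are given as names or effect sizes beside their list, and genes listed as called in both strains, were added after their values were seen. Results of some genes are not reported here. Lists are described by counts and medians, with no test of the list. Alternatives were DESeq2 1.42.0, other scalings and filters, fewer libraries in the fit, limma on the deposited log2 values, the ID range as a term, within and outside ORSAM77, and leaving out each library. Promoter starts came from the RefSeq table for GRCm38.p6, and gene positions from the deposited annotation.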

Additional observations from a re-analysis of the deposited data

Results flagged for a closer look

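Among 228 groups checked (4 libraries each, of the genes and list sums with printed values), 10 held a library far from the other 3; chance marks about 1 group in 20. In CAST/EiJ on 44% fat, Fasn was at 9330 CPM in replicate 1 against 20400 to 22000 in the others, Clstn2 at 6.49 in replicate 4 against 11 to 11.3, and Bnip3, a mitophagy receptor, at 371 in replicate 2 against 450 to 455. In NZO/HlLtJ on 44% fat, Slc2a5 was at 1.22 CPM in replicate 2 against 0.366 to 0.480, H2-Aa at 602 in replicate 1 against 289 to 333, and Krt19 at 2.89 in replicate 2 against 8.29 to 8.89. In NZO/HlLtJ on 10% fat replicate 3 stood apart for 4 genes, with Nnat at 425 CPM against 238 to 269, Sctr at 13.0 against 8.53 to 8.66, Plin2 at 435 against 587 to 606 and Bnip3 at 458 against 325 to 334.

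The diet response differed between the strains for 2601 genes by the interaction test, and that interaction differed between females and males for 237 genes by the edgeR test of the difference. Among genes with printed values the female minus male difference was -3.94 for Cyp2e1, -1.34 for Adipoq, -2.32 for Adrb3, -3.74 for Peg3, -3.03 for Vstm2b, -3.01 for Ces1f, 2.00 for Plin2, -1.63 for Gsn, -1.67 for Bnip3 and -2.31 for Ppl (log2).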

How the results depend on the processing

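Interaction calls numbered 2301 to 3110 over the 11 alternatives that kept the 16 libraries (ID range as a term 2301, DESeq2 3110) against 2601, and 2059 without the 2 libraries highest in class II and skeletal muscle genes, a choice made after seeing the data. Of the 85 named called genes 0 changed sign in any alternative run, but 57 calls ended within ORSAM77, 30 outside it, 10 without those 2 libraries, 8 with the ID range as a term and 0 to 5 in each of the other 10 alternatives. The 85 genes were called on the same libraries that the alternatives refit, which largely fixes their signs, and 84 of them were tested with minimum count 50. DESeq2 gave 686 female minus male calls against 237, 201 genes in the opposite class against 130, 10 macrophage calls against 6 and 11 lipid-associated macrophage calls against 7. Library totals gave 2151 diet calls in CAST/EiJ against 1232 and 199 in the opposite class. The 16 libraries alone gave 12 lipid-associated macrophage calls, the 24 females 10 macrophage and 11 lipid-associated, limma on the log2 values 10 macrophage, and the ID range as a term 4 lipid-associated and 2 progenitor calls against 6. The cause of these moves was not tested.

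Within ORSAM77, with 6 libraries, 174 genes were called, 14 opposite, 93 NZO/HlLtJ only, 53 CAST/EiJ only and 8 neither, with 2 adipocyte, 0 branched-chain, 1 mesothelial, 2 progenitor, 1 cell cycle, 1 lysosome, 0 class II, 1 macrophage, 1 lipid-associated and 5 cholesterol calls. Outside, with 10 libraries, 864 were called, 54 opposite, 454 NZO/HlLtJ only, 160 CAST/EiJ only and 196 neither. The lists there had 5 adipocyte, 13 branched-chain, 5 mesothelial, 1 progenitor and 13 cell cycle calls. They also had 7 lysosome, 6 class II, 3 macrophage, 10 lipid-associated and 2 cholesterol calls. In these 10 libraries the range and the diet cannot be told apart in NZO/HlLtJ. The median of the branched-chain list was log2 -0.36 within ORSAM77 and -0.73 outside. Both sets hold fewer libraries, and ORSAM77 has 1 CAST/EiJ library on each diet, assumed to vary like the NZO/HlLtJ pairs.

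Without 1 library the interaction called 2048 to 2544 genes, NZO/HlLtJ diet 3017 to 4001, CAST/EiJ diet 677 to 1357 and females minus males 131 to 358. The classes ran from 75 to 139 (opposite), 1275 to 1626 (NZO/HlLtJ only), 253 to 504 (CAST/EiJ only) and 297 to 377 (neither). The lists ran from 8 to 10 (adipocyte), 14 to 15 (branched-chain), 10 to 10 (mesothelial), 3 to 6 (progenitor), 14 to 18 (cell cycle), 12 to 14 (lysosome), 6 to 7 (class II), 5 to 9 (macrophage), 5 to 7 (lipid-associated) and 3 to 9 (cholesterol). CAST/EiJ on 10% fat replicate 4 gave the low values 677, 75 and 253. The 4 lowest counts of females minus males came without it (139), NZO/HlLtJ on 44% fat replicate 2 (131), CAST/EiJ on 44% fat replicate 1 (136) and NZO/HlLtJ on 10% fat replicate 3 (139), and the 358 without CAST/EiJ on 10% fat replicate 1.

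Genes not called for the interaction changed sign in some alternatives, with log2 values of Acaca (0.030, 0.030, 0.0013, 0.021, 0.026, 0.17, 0.16, 0.45, 0.13, 0.12), Scd1 (-0.030, -0.043, -0.014), Col1a1 (0.018, 0.017), Slc2a4 (0.024, 0.29), Mlxipl (-0.043), Npr3 (-0.28), Cidea (1.93), Col6a3 (0.038). Of these Cidea passed in ORSAM77 (1.93, adjusted p = 0.0227 by edgeR, with the spread from the NZO/HlLtJ pairs alone) and was at -0.39 with all 16 libraries and -1.65 outside ORSAM77. Without 1 library, genes that changed sign in some fits ranged as follows, Pparg from -0.062 to 0.27, Acaca from -0.26 to 0.16, Col1a1 from -0.17 to 0.15, Npr3 from -0.31 to 0.32, Slc2a5 from -0.26 to 0.74, Scd1 from -0.092 to 0.11, Col6a3 from -0.39 to 0.19, Slc2a4 from -0.17 to 0.12, Mlxipl from -0.073 to 0.18, Cidea from -0.72 to 0.16. The cause of these changes was not tested.

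No paired analysis was possible because the labels give no replicate numbers shared between groups. Genes near the filter, such as Spp1 in CAST/EiJ, rest on few counts.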

Other observations

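Genes of interferon response rose in NZO/HlLtJ, with 15 of 20 called and 0 fallen (median log2 0.73), while 2 rose in CAST/EiJ (median 0.19). Their summed level rose without overlap in CAST/EiJ, from 704 to 902 CPM on 10% fat to 1330 to 1660 on 44% fat. In NZO/HlLtJ the sums overlapped, at 658 to 838 CPM and then 724 to 1440. The interaction was positive for 1, Mx1, and negative for 1, Ifi27l2a, with a median of 0.51. Of all tested genes 7.2% were positive and 6.65% negative. Mx1, an antiviral GTPase, was at 24.2, 28.1, 25.6 and 24.2 CPM in NZO/HlLtJ on 10% fat and at 89.6, 69.9, 35.8 and 49.7 on 44% fat, and at 0.401 to 1.10 in all CAST/EiJ libraries. Its interaction was log2 1.70 (SE 0.46, adjusted p = 0.0105 by edgeR). Of 18 genes of the unfolded protein response 8 rose in NZO/HlLtJ and 1 in CAST/EiJ, with similar median effects of log2 0.29 and 0.26. The interaction was positive for 1, Canx, against 7.2% of all tested genes, and its median over the list was -0.004. The calls of Ifi27l2a and Canx were lost in 9 and 12 of the 16 fits without 1 library (highest adjusted p 0.0942 and 0.105 by edgeR).

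Antioxidant genes split. Of 18, 4 had a positive interaction (Srxn1, Hmox1, Gclm and Prdx6) and 3 a negative one (Gstm1, Cat and Sod1). Srxn1, a reductase that restores peroxiredoxins, rose by log2 0.68 in NZO/HlLtJ and fell by 0.71 in CAST/EiJ. Of 20 genes of fatty acid oxidation 3 had a negative interaction, among them Acaa1b and Cpt2, against 6.65% of all tested genes. Of 15 clock genes 2, Hlf and Per3, had a negative one, against the same 6.65%. The call of Per3 was lost in 9 of 16 fits without 1 library (highest adjusted p = 0.134 by edgeR). Ereg, an epidermal growth factor receptor ligand, and Olr1, a receptor for oxidized lipoprotein, had the largest interactions of the opposite class, log2 8.10 and 5.11, at mean levels below the naming floor, and were chosen after their values were seen.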
